A study of Mus musculus with 4 samples.

Results

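The genes described are 10 core transcription factors of the heart, Nkx2-5, Gata4, Gata5, Gata6, Mef2a, Mef2c, Srf, Myocd, Hand1 and Hand2. They were found as every non-control probe on the array that the deposited files name after one of these genes, which gave 18 of 41174 probes and 10 of 27670 genes. All 10 genes and 17 of the 18 probes passed the filter on dim probes, which left 19091 genes and 28794 probes in all. The tissue was the atrioventricular canal (AVC), the segment between the embryonic atria and ventricles, micro-dissected from mouse hearts at e10.5, a midgestation stage at which the cushions form. The mutant embryos carried a hypomorphic Tbx3 genotype, whose allele structure is not given in the sources used here, and the controls were wild type at Tbx3. Both genotypes were on a mixed background, 50% Sv129 and 50% C57Bl6, and each sample pooled the canals of 5 hearts. Each of 4 arrays compared 1 mutant pool, labelled with the red dye Cy5, with 1 control pool, labelled with the green dye Cy3. The labels call the 4 arrays biological replicates.

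In the heart these factors work as a network. NKX2-5 and the GATA zinc finger proteins bind each other and switch on genes of heart muscle together, the MADS box proteins SRF and MEF2 bind A/T-rich boxes in muscle genes, and myocardin, encoded by Myocd, is a coactivator that SRF carries to such boxes. HAND1 and HAND2 are basic helix-loop-helix factors needed for growth of the ventricles and outflow tract. TBX3 is a T-box repressor that keeps the AVC and the conduction system from taking on the features of chamber muscle, and together with NKX2-5 it holds the promoter of Nppa silent. The comparison asks whether these activators differ in level in AVC tissue with a reduced dose of that repressor.

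Values are log2 ratios of mutant over control within an array, so a value above 0 is a stronger mutant signal and 0 is no difference. Errors are SDs over the 4 arrays (n = 4), and each adjusted p comes from limma with Benjamini-Hochberg adjustment over the 19091 genes, with a threshold of 0.05. All 4 arrays had the same dye orientation and lay on 1 slide, so genotype and any dye effect on a single gene cannot be told apart. Median spot signals before normalization lay between 175.1 and 232.5 in the mutant channels and between 117.9 and 133.5 in the control channels, and the number of arrays limits the precision. Tbx3 itself read -1.35, -1.40, -1.43 and -1.21 on arrays 1 to 4 (adjusted p = 0.0454), lower in mutant on all 4, as its label says, and no other gene passed. Array 2 stood apart, with an SD of 0.49 over all genes against 0.26 to 0.29 on the others. Its control pool had a summed level of 17099 over 5 measured of 8 uterus and decidua markers, against 1457 to 1541 in the other control pools and 1074 to 3707 in the mutant pools. Of that list Pgr was above background in 1 of the 8 pools, and Prl3c1 in 1. Results that rest on array 2 are therefore given with and without it. In pooled tissue, fewer cells of a type and less RNA per cell cannot be told apart.

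None of the 10 factors passed the threshold, beside 0.00524% of all genes on 4 arrays. Mef2c and Srf had the highest mean ratios, at 0.40 and 0.34, and were the 2 factors with a positive ratio on all 4 arrays, a pattern held by 12.3% of all genes. None was negative on all 4, beside 12.6% of all genes. By the probe that stands for each gene, the 3 GATA genes, Hand2, Nkx2-5 and Mef2a read below 0 on arrays 1, 3 and 4 and above 0 on array 2. That pattern was held by 6 of 10 factors and by 10.4% of all genes. It was defined after the values of these factors were seen, so the 2 shares are a description and not a test. Mef2a met it with -0.006 on array 1 and Nkx2-5 with 0.05 on array 2, both close to 0. The other probes of Gata6 and Mef2a did not share it, as given below. Hand1 and Myocd read above 0 on 3 arrays and below 0 on array 4. At an unadjusted p under 0.05, 2 of 10 factors were called on 4 arrays, where 14.6% of all genes were. Without array 2 these were 5 of 10, beside 23.2% of all genes, and still no factor passed the adjusted threshold, beside 1.01%.

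**Figure D1:**
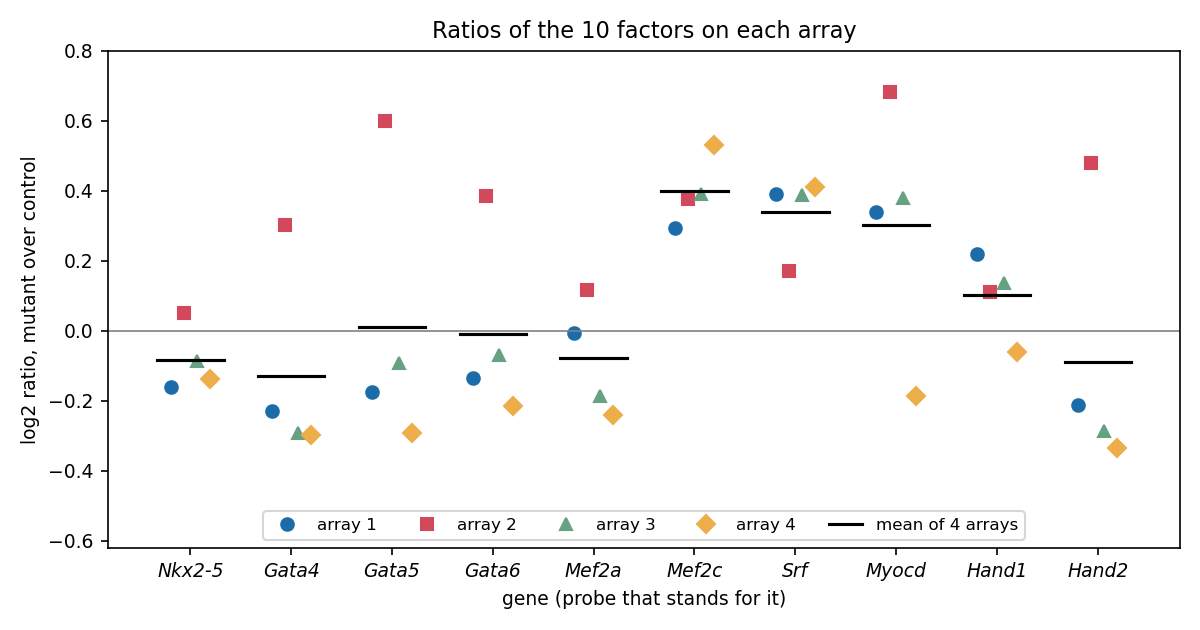
Log2 ratio of mutant over control for each of the 10 factors, by the probe that stands for the gene, with 1 point for each of 4 arrays and a line at their mean. Mef2c and Srf lie above 0 on every array, and the GATA genes and Hand2 lie below 0 on arrays 1, 3 and 4 and between 0.30 and 0.60 on array 2.

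Mef2c encodes a MADS box activator of muscle genes that is needed for looping and growth of the heart tube. Its normalized log2 levels in the mutant pools were 11.36, 11.33, 11.54 and 11.70 on arrays 1 to 4, against 11.07, 10.96, 11.15 and 11.17 in the control pools. Every mutant pool was above every control pool, which held for Mef2c and Srf, 2 of 10 factors, and for 9.07% of all genes. The ratios were 0.29, 0.38, 0.39 and 0.53, with a mean of 0.40 ± 0.10 (95% interval from 0.23 to 0.56; adjusted p = 0.142), which is rank 180 by p among all genes. Without array 2 the mean was 0.41 ± 0.12 (adjusted p = 0.0728), so array 2 did not set this value. The probe covers bases 80738124 to 80738183 of chromosome 13 on the plus strand in build mm7. A second Mef2c probe, from 80652493 to 80652552 on that chromosome, was not well above background on any channel and was left out of the test. The value of Mef2c therefore rests on 1 probe.

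Srf encodes the serum response factor, which binds a short box with a C pair at one end, a G pair at the other and A/T between them, known as the CArG box. Its levels were 14.16, 13.92, 14.11 and 13.98 in the mutant pools, against 13.77, 13.75, 13.73 and 13.57 in the control pools. Here too no control pool reached the lowest mutant pool. The ratios were 0.39, 0.17, 0.39 and 0.41, with a mean of 0.34 ± 0.11 (95% interval from 0.17 to 0.51; adjusted p = 0.157) and rank 420. Array 2 was the low value, and without it the mean was 0.40 ± 0.01 (adjusted p = 0.0585). The single Srf probe lies on chromosome 17 from 44675728 to 44675786 on the minus strand in mm7. With arrays weighted by their agreement with the others, Srf and Mef2c both passed, with 0.39 (adjusted p = 0.0239) and 0.43 (adjusted p = 0.0244), as did 8.24% of all genes. When the arrays were centred on their median in place of the loess curve, 6 of the 10 factors passed, all with positive ratios, as did 40.7% of all genes, and the median of all genes then lay at 0.23. These were Srf, Mef2c, Myocd, Hand1, Nkx2-5 and Gata6, the last 2 with the sign turned.

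Srf is known to be switched on through CArG boxes in its own promoter. The 250 bases before its start site in the RefSeq table (build GRCm38.p6, chr17:46556163-46556412, minus strand) are printed to show these boxes, which are in capitals.
Srf promoter: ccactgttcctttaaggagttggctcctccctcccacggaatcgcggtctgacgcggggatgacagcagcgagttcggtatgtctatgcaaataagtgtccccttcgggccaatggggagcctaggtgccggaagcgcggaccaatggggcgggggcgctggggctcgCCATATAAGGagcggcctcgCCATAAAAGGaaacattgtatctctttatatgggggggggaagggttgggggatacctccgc
A search of both strands for the CArG box found these 2 boxes, the first bases of which lie 82 and 62 bases before the start site. The box was found in 482 of 32851 promoters of this length, or 1.47%. RefSeq promoters were found for 6 of the 10 factors, and Srf was the one with a CArG box. Among the targets followed below, the heart muscle genes Myl7 and Actc1 held 1 box each, as did Vcl of the smooth muscle list and the partner Hopx. Egr2 of the immediate early list held a box in 4 of its 5 promoters. Some of these promoters overlap, and the box within chr10:67537787-67537816 was counted again from each of several start sites. Promoters were found for 17 of 17 heart muscle targets and 18 of 23 partners. They were found for 7 of 10 smooth muscle genes and 4 of 7 immediate early genes. Genes with no promoter found, Tagln and Egr1 among them, were not searched. Boxes with a mismatch or farther from the start site were not looked for. Myl7 and Actc1, the heart muscle targets, are shown with 10 bases on either side, Myl7 at chr11:5898824-5898853 and Actc1 at chr2:114052903-114052932, both on the minus strand.
Myl7: ccattcctctCCTTATTTGGgcctctgggt
Actc1: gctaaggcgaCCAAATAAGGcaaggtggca
A match is a run of letters, and binding was not measured.

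Myocd, whose product drives SRF towards muscle genes, varied most between arrays among the MADS box proteins and their coactivator. Its levels were 10.96, 11.63, 11.40 and 11.09 in the mutant pools and 10.62, 10.95, 11.02 and 11.28 in the control pools, and the groups overlapped. The ratios of 0.34, 0.68, 0.38 and -0.19 averaged 0.30 ± 0.36 (adjusted p = 0.409). A second, dimmer probe gave 0.25, 0.60, 0.27 and -0.14, so the negative value on array 4 was seen with both. Without array 2 the mean was 0.18 ± 0.31, and without array 4 it was 0.47 (unadjusted p = 0.00917; adjusted p = 0.578 in limma). The mean of Srf minus Myocd was 0.04 ± 0.45, and the sign of that difference was positive on 3 of 4 arrays.

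Mef2a encodes another MEF2 factor, and its 3 probes did not give the same direction. The brightest, from 63093104 to 63093163 of chromosome 7 on the minus strand, read -0.01, 0.12, -0.19 and -0.24, with a mean of -0.08 ± 0.16 (adjusted p = 0.704). The second probe lies 3170 bases upstream of it in the direction of transcription, and the third 345 bases downstream of the second. They averaged 0.19 ± 0.08 and 0.21 ± 0.11. Both were positive on 4 of 4 arrays, with adjusted p = 0.310 and 0.296 in a limma fit over 28794 probes. The third, at 8.67 to 8.90 in the mutant pools and 8.50 to 8.60 in the control pools, did not overlap between genotypes. The accession behind the brightest probe differs from that of the other 2, and which transcript forms each one reads was not tested. The ratio of Mef2c was above that of the brightest Mef2a probe on 4 of 4 arrays, by 0.48 ± 0.24.

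**Figure D2:**
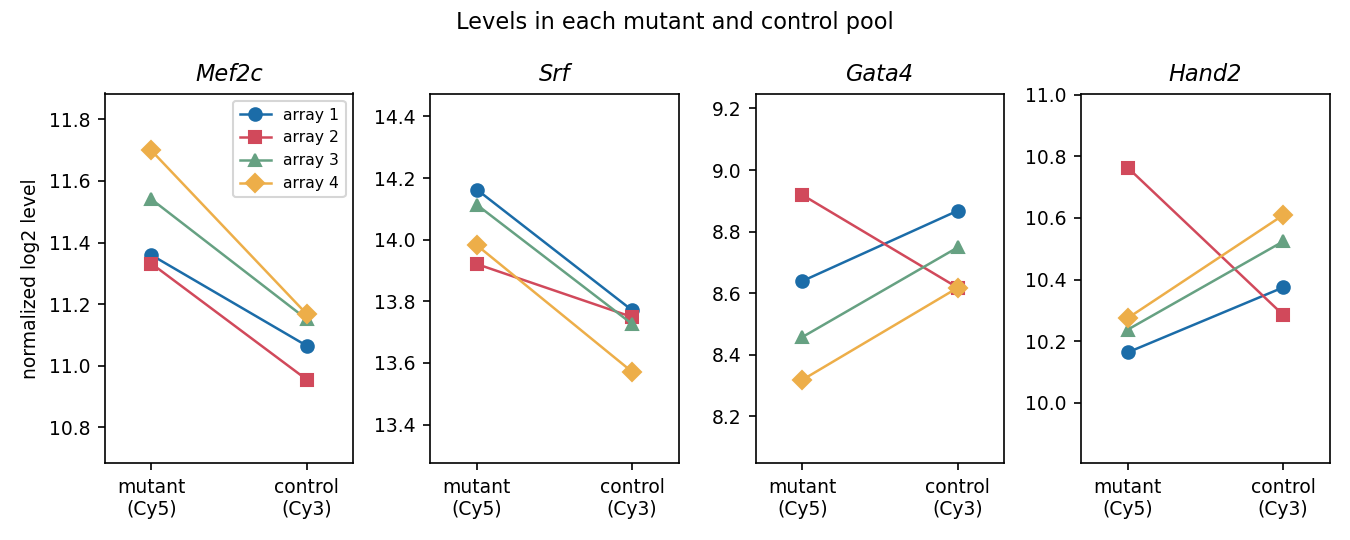
Normalized log2 level of Mef2c, Srf, Gata4 and Hand2 in each mutant pool (Cy5) and control pool (Cy3), with a line joining the 2 pools of an array and axes of equal span. For Mef2c and Srf the lowest mutant pool lies above the highest control pool, and for Gata4 and Hand2 the line of array 2 slopes against the other 3.

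Gata4 encodes a zinc finger activator that acts in both muscle and endocardium of the heart and takes part in forming the cushions. Its levels were 8.64, 8.92, 8.46 and 8.32 in the mutant pools, against 8.87, 8.62, 8.75 and 8.62 in the control pools. The mutant pool of array 2 was the highest of the 8 pools, and on each other array the mutant pool was below its control. The ratios were -0.23, 0.30, -0.29 and -0.30, with a mean of -0.13 ± 0.29 (adjusted p = 0.666). This probe was printed in 10 spots, and the SD between those spots was 0.03 to 0.06 on each array, which is the technical spread within an array and not that between pools. Without array 2 the mean was -0.27 ± 0.04 (unadjusted p = 0.00610; adjusted p = 0.0902). A second Gata4 probe, at 58062775 to 58062796 of chromosome 14 as far as the file places it, read -0.46, 0.66, -0.43 and -0.44. Its sign on each array was the same, and its mean without array 2 was -0.44 ± 0.01 (adjusted p = 0.0557 over all probes). The brighter probe lies at 58063189 to 58063248, and both are on the minus strand.

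Gata5, which in the embryonic heart is expressed mainly in endocardium, had levels of 10.323, 10.844, 10.497 and 10.392 in the mutant pools, against 10.497, 10.246, 10.589 and 10.684 in the control pools. The pools of array 2 were again at opposite ends, the mutant pool highest and the control pool lowest. The ratios were -0.17, 0.60, -0.09 and -0.29, and the mean was 0.01 ± 0.40 (adjusted p = 0.985). Without array 2 it was -0.19 ± 0.10 (unadjusted p = 0.0427; adjusted p = 0.199), so that array alone turned the sign. Its single probe lies on the minus strand of chromosome 2, from 180826431 to 180826490.

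Gata6, a GATA factor of heart muscle and of the outflow tract, had levels of 14.53, 14.85, 14.65 and 14.54 in the mutant pools, against 14.66, 14.47, 14.72 and 14.76 in the control pools. Array 2 held the highest mutant pool and the lowest control pool here as well. The ratios of -0.13, 0.39, -0.07 and -0.21 gave a mean of -0.01 ± 0.27 (adjusted p = 0.982), and -0.14 ± 0.07 without array 2 (adjusted p = 0.271). The other 2 probes averaged 0.16 ± 0.37 and 0.06 ± 0.27 on 4 arrays, and -0.02 ± 0.07 and -0.06 ± 0.17 without array 2. The brighter of these 2 read 0.02 and 0.01 on arrays 1 and 3, and the dimmer 0.11 on array 1, above 0 where the first probe was below. All 3 probes were highest on array 2, but their mean has no settled sign.

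Hand2 encodes a basic helix-loop-helix factor of the right ventricle, the outflow tract and the cushions. Its 2 probes overlap, and their 60 bases span 1360 bases of chromosome 8 on the plus strand in mm7 (chr8:55705252-55706611 for the upstream probe and chr8:55705289-55706648 for the downstream one), which means that each crosses an intron. The sequences are printed because the probes share 23 bases, here in capitals, and so are not separate readings of the transcript.
Hand2 upstream probe: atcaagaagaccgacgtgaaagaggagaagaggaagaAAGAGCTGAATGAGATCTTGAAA
Hand2 downstream probe: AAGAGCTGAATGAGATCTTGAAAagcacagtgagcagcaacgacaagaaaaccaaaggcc
The downstream probe is the brighter and stands for the gene. Its levels were 10.16, 10.76, 10.24 and 10.27 in the mutant pools, against 10.37, 10.29, 10.52 and 10.61 in the control pools. The mutant pool of array 2 was above all other pools, while its control pool was the lowest of the controls. The ratios were -0.21, 0.48, -0.29 and -0.33, with a mean of -0.09 ± 0.38 (adjusted p = 0.827), and -0.28 ± 0.06 without array 2 (unadjusted p = 0.00681; adjusted p = 0.0944). The upstream probe read -0.26, 0.47, -0.31 and -0.43, the same order of arrays.

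**Figure D3:**
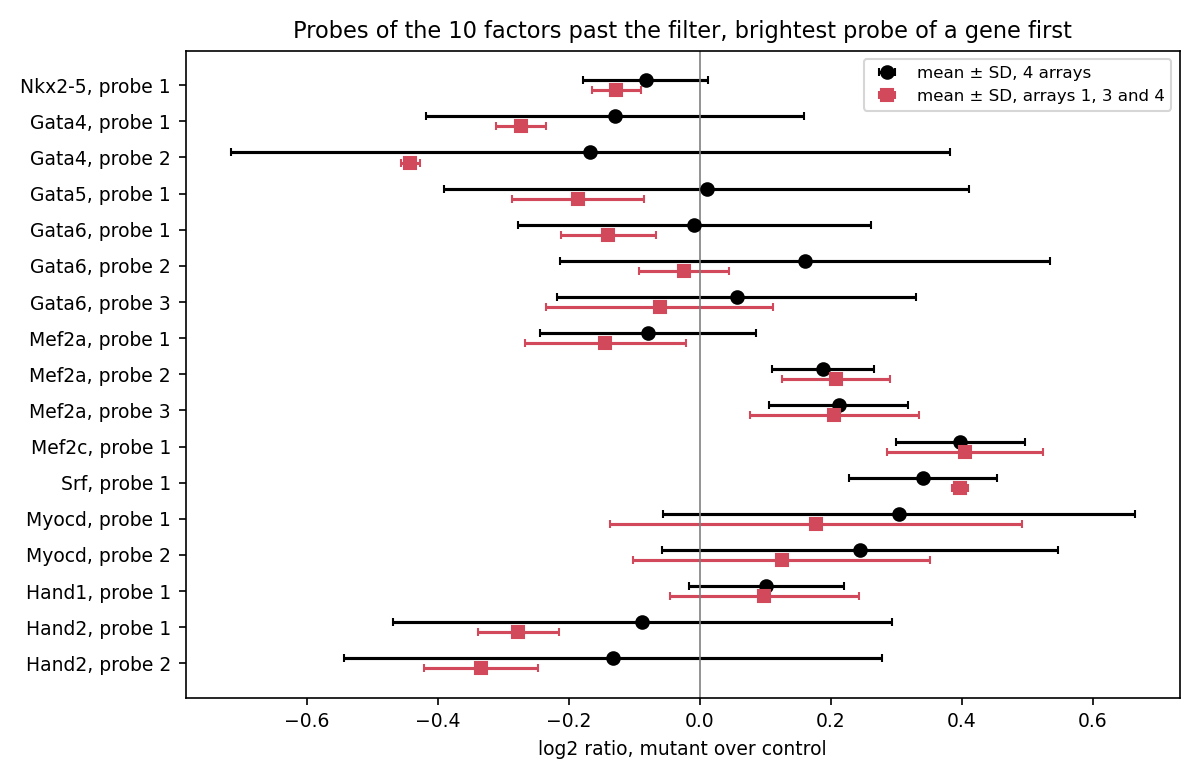
Mean log2 ratio of mutant over control with its SD for the 17 probes past the filter, over 4 arrays (black circles) and over arrays 1, 3 and 4 (red squares). The 8 probes of the GATA genes and Hand2 have wide bars on 4 arrays and lie at or below -0.02 without array 2, while Mef2c and Srf stay at 0.34 or above.

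All 8 GATA and Hand2 probes past the filter were highest on array 2. So were both Myocd probes, the Nkx2-5 probe and the brightest Mef2a probe. Array 2 had the widest spread over all genes, with an SD of 0.49, and the share of all probes that were highest on it was not counted. The count is therefore not read as a result about these genes. Probes of 1 gene are not separate readings, and the 2 Hand2 probes share 23 bases. The tissue held several cell types, and marker lists whose sums differed are given beside these values. In the control pool of array 2 the summed level of 6 cushion mesenchyme markers was 495914, against 103641 to 105454 in the other control pools and 80898 to 85546 in the 4 mutant pools. Twist1 in this list read 0.04 on array 2, while Col1a1, which encodes a collagen chain, read -3.58. The same control pool had a sum of 38427 over 5 leukocyte markers, against 9018 to 12015 in the other control pools and 7139 to 9801 in the mutant pools. The sum of 5 erythroid markers was 699689 to 1068790 in the mutant pools and 258645 to 660842 in the control pools. That of 4 measured of 5 neural crest markers was 3655 to 4392 in the mutant pools and 4432 to 5327 in the control pools. Neither of these overlaps between genotypes. The part of these cells or of other RNA in the ratios of the factors was not tested. The 7 endocardium markers summed to 25942 to 31612 in the mutant pools and 24894 to 30773 in the control pools, which overlap.

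Hand1, a factor of the left ventricle and its outer curvature, is related to Hand2 and did not share its pattern. Its levels were 11.29, 11.19, 11.38 and 11.03 in the mutant pools, against 11.07, 11.08, 11.24 and 11.09 in the control pools. The groups overlapped, and the ratios of 0.22, 0.11, 0.14 and -0.06 averaged 0.10 ± 0.12 (adjusted p = 0.564). The ratio of Hand1 minus that of Hand2 was 0.43, -0.37, 0.42 and 0.27 on arrays 1 to 4, positive on 3. The Hand1 probe lies on chromosome 11 from 57910385 to 57910444 on the minus strand.

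Nkx2-5, the homeobox factor that marks heart muscle from its earliest stage, had the narrowest range of the 10. Its levels were 14.45, 14.64, 14.56 and 14.50 in the mutant pools, against 14.61, 14.59, 14.65 and 14.64 in the control pools. The mutant pool was the lower of the pair on arrays 1, 3 and 4. The ratios were -0.16, 0.05, -0.09 and -0.14, with a mean of -0.08 ± 0.09 and a 95% interval from -0.25 to 0.08 (adjusted p = 0.613). Without array 2 the mean was -0.13 ± 0.04 (adjusted p = 0.280). The probe lies on chromosome 17 from 25023452 to 25023511 on the minus strand.

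Across the 10 factors the ratios of arrays 1, 3 and 4 ran together, with a Pearson's r of 0.94 for arrays 1 with 3, 0.75 for 1 with 4 and 0.79 for 3 with 4. Over 19091 genes those 3 pairs gave 0.25, 0.35 and 0.66 in that order. Array 2 gave r of -0.02, 0.12 and -0.23 with arrays 1, 3 and 4 for the factors, and 0.07, -0.06 and -0.02 over 19089 genes. The values for the factors describe 10 genes that share pools and arrays. The median of the 10 factors was -0.07, 0.34, -0.08 and -0.20 on arrays 1 to 4, with 10 of 10 positive on array 2, where 47.6% of all genes were. Over 4 arrays the median of their means was 0.0009 and that of all genes 0.0012. The transcripts most like Mef2c were picked by Pearson's r over the 8 pools' levels among 19088 genes. The signs of their ratios are therefore not a separate result. These were Iftap (r = 0.988), Aunip (r = 0.987) and Hsd17b12 (r = 0.987), with mean ratios of 0.20, 0.36 and 0.40. Those most like Gata4, the factor with the lowest mean, were picked likewise and included the sequences BF165830 (r = 0.978) and AW913259 (r = 0.968). Both were positive on array 2 and negative on the others, which the same choice favours.

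Relatives of the factors were counted as a list of 13 genes, all measured. None passed, and 2 had an unadjusted p under 0.05 (4 without array 2), beside 14.6% of all genes (23.2% without array 2). A positive mean was seen in 3, and the median of the list was -0.12 on 4 arrays and -0.04 without array 2. Mef2d, a further MEF2 gene, read -0.15 ± 0.07 and was negative on 4 of 4 arrays (adjusted p = 0.352), in contrast to 0.40 for Mef2c. Mkl1 and Mkl2, now named Mrtfa and Mrtfb, encode SRF coactivators related to myocardin, and read -0.05 ± 0.29 and 0.13 ± 0.09. Gata2, a GATA factor of blood and endothelium, read 0.05, -0.58, 0.04 and 0.09, low on array 2, where Gata4, Gata5 and Gata6 were high.

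Of 23 partners and cofactors 22 were measured and none passed. An unadjusted p under 0.05 was held by 2 (6 without array 2), beside 14.6% of all genes (23.2% without array 2). A positive mean was seen in 13, with a median of 0.04 on 4 arrays and -0.01 without array 2. Tbx5, the T-box activator that pairs with NKX2-5 and GATA4, read -0.15, 0.58, -0.26 and -0.30, with a mean of -0.03 ± 0.41 (adjusted p = 0.947) and -0.23 without array 2 (adjusted p = 0.125). It had the signs of Gata4 and Hand2 on each array. Tbx20, a T-box factor of the same complexes, read -0.40, 0.25, 0.15 and 0.09. Zfpm2, the GATA cofactor also called FOG2, averaged 0.14 ± 0.17 and was positive on 4 of 4 arrays (adjusted p = 0.514). Isl1, a marker of the progenitors that add to the heart tube, was positive on 4 of 4 at 0.64 ± 0.68 (adjusted p = 0.349), with 1.63 on array 2.

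**Figure D4:**
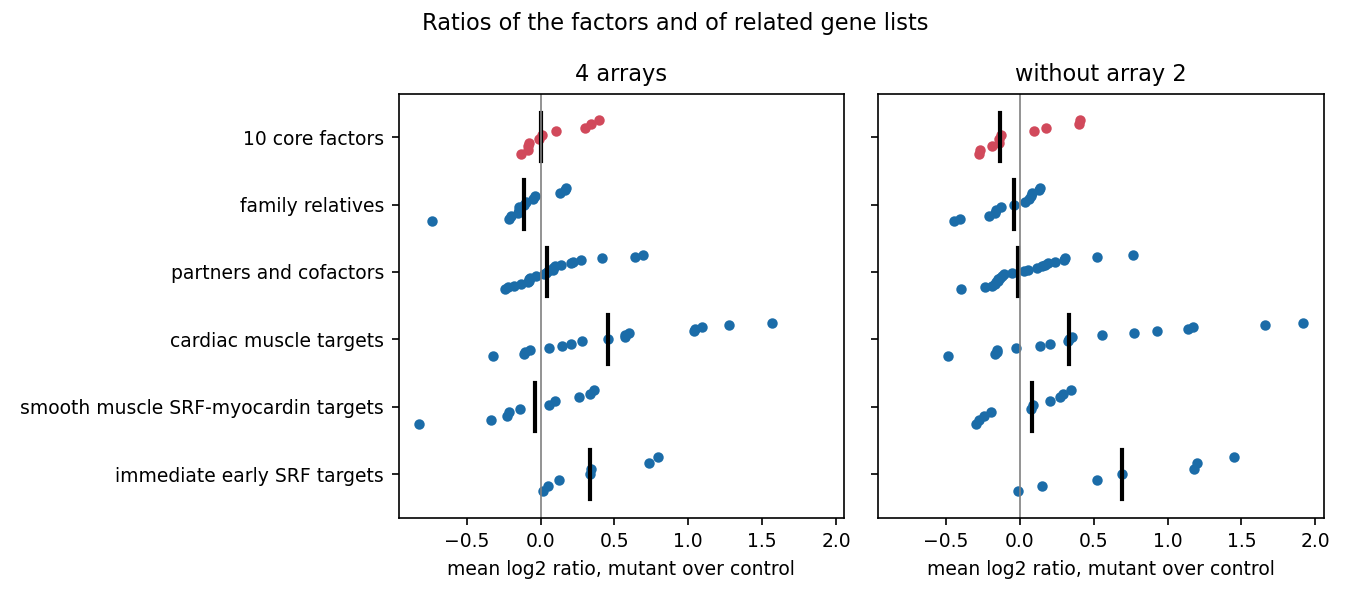
Mean log2 ratio of mutant over control of each gene in the 10 factors (red) and in 5 related lists (blue), over 4 arrays on the left and without array 2 on the right, with a black bar at each list's median. The bar of the cardiac muscle targets lies at 0.46 and 0.33, and that of the factors at 0.0009 and -0.13.

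Targets of the factors in heart muscle had a higher median ratio than the factors. Of 17 measured, 13 had a positive mean and none passed on 4 arrays. An unadjusted p under 0.05 was held by 11, beside 14.6% of all genes. The median was 0.46, against 0.0012 for all genes. Without array 2 the median was 0.33 and 5 of 17 passed, all higher, beside 1.01% of all genes. These were the natriuretic peptide genes Nppa at 1.66 (adjusted p = 0.0388) and Nppb at 1.92 (adjusted p = 0.0350), the myosin genes Myh7 at 1.17 (adjusted p = 0.0334) and Myl7 at 0.93 (adjusted p = 0.0450), and the stretch-responsive gene Ankrd1 at 1.14 (adjusted p = 0.0350). On 4 arrays Nppa read 1.38, 0.13, 2.12 and 1.48, so array 2 was its low value. Of the 17 probes 8 had a mean log2 intensity above 16, and 4 of those 8 belong to the 5 genes named. With the running median over intensity removed and array 2 left out, Nppb at 1.93 and Ankrd1 at 0.97 were the 2 that passed, Nppa read 1.49 (adjusted p = 0.0586), and the median of the list was 0.10. Srf and Mef2c then read 0.45 and 0.40, close to their values without the correction.

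Several of the targets that did not pass had positive means as well. Actc1, the cardiac actin gene whose promoter box is shown above, averaged 0.57 ± 0.47 (adjusted p = 0.266), and 0.02 with array 2 left out and the running median removed. Myh6, a myosin gene, averaged 0.46 ± 0.41 (adjusted p = 0.299). Both were positive on 4 of 4 arrays. Adora1, an adenosine receptor gene of atria and conduction tissue, read -0.55, 0.17, -0.47 and -0.44, with -0.48 without array 2 (adjusted p = 0.0512), the same signs as Gata4. The summed level of 6 markers of working heart muscle was 593902 to 695666 in the mutant pools and 369105 to 510015 in the control pools. That of 6 AVC muscle markers, Tbx3 among them, was 12971 to 17350 in the mutant pools and 25243 to 27784 in the control pools. Neither pair of ranges overlaps, and their part in the ratios of the factors and targets was not tested. The sums add linear levels, so bright genes weigh most, and Tbx3 is the mutated gene itself. Of the other AVC markers on array 2, Tbx2, Bmp2 and Msx2 read 0.55, 0.48 and 0.21, and Cacna1g and Rspo3 -1.31 and -0.35. On arrays 1, 3 and 4 Bmp2 read -0.51, -0.52 and -0.37 and Msx2 -0.60, -0.64 and -0.51. Tbx2 was positive and Cacna1g and Rspo3 were negative on every array. Without array 2, 3 of the 6 passed, all lower, beside 1.01% of all genes. These were Tbx3, Msx2 at -0.58 (adjusted p = 0.0429) and Cacna1g at -0.94 (adjusted p = 0.0334). Of the working muscle markers, Myl7, Tnnt2, Myh6 and Actn2 averaged 0.39, 0.05, 0.24 and -0.03 with the running median removed.

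SRF and myocardin are also known for smooth muscle genes, of which 10 of 10 were measured and 5 had a positive mean. None passed with or without array 2. On 4 arrays 3 had an unadjusted p under 0.05, beside 14.6% of all genes. Without array 2 these were 7, beside 23.2% of all genes, and the median was 0.08, against -0.04 on 4 arrays. Acta2, the smooth muscle actin gene, read 0.33 ± 0.14 and the contractile gene Cnn1 0.36 ± 0.15, each positive on 4 of 4 arrays (adjusted p = 0.179 and 0.171). With the running median removed they read -0.11 and 0.20, so the sign of Acta2 turned. Tagln, a further smooth muscle gene, read 0.26, -0.64, 0.41 and 0.20. Immediate early genes that SRF drives with other cofactors had a positive mean in 7 of 7, with a median of 0.34. None passed the threshold, and 0 had an unadjusted p under 0.05, beside 14.6% of all genes. Without array 2 the median was 0.69, 6 of 7 were positive and none passed. Then 5 had an unadjusted p under 0.05, beside 23.2% of all genes. Fos read 2.44, -0.60, 0.52 and 0.58 and Egr1 2.41, -0.40, 0.50 and 0.67, highest on array 1 and negative on array 2. Srf did not show this order, with its arrays 1, 3 and 4 between 0.39 and 0.41.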

How the data were processed

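RNA of 8 AVC pools was amplified, labelled and hybridised to 4 two-colour arrays of 60-base probes, per the labels' protocols. The authors deposited scanner output. The submitters' processing notes name Agilent Feature Extraction 9.5.1. The deposited intensity columns are the mean pixel signal and the median local background of each spot and channel. The log10 ratio that the authors deposited, of red over green, follows the scanner software's background subtraction and dye normalization, per the file headers, and was used as an alternative. Those ratios recur in the series table, equal to within 5e-07.

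In limma 3.58.1 (R 4.3.3), normexp with offset 50 corrected the background and a loess curve, to which control spots gave no weight, normalized each array. Spots with a non-uniform flag were dropped, and the remaining spots of each probe were averaged. A probe was kept if, on 3 or more arrays, either channel was flagged well above background, and a gene was represented by its brightest probe. A 2-sided test of the within-array ratio against 0 used lmFit and eBayes. Levels of single pools came from Aquantile normalization between arrays and are open to dye bias. They are compared only within a probe. A probe's position is the one in the files (mm7), and promoters are those of RefSeq (GRCm38.p6). For the CArG box, the positions of all boxes were read on both strands. Where pools differ in ways other than genotype, p-values include that spread.

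The members and all lists were chosen with earlier results of these data known. The text names every member and probe, Tbx3, 17 fixed list genes, genes of the 5 related lists past the threshold with or without array 2, and the 3 transcripts most like the highest and the lowest factor, of which 1 is not reported here. Twist1, Col1a1, Pgr, Prl3c1, Vcl, Egr2 and Hopx were named after their values were seen. Alternatives were other background, centring, filter and probe rules, array weights, each array left out, and, chosen after seeing the data, array 2 left out together with removal of the running median. After the main fit, the method was run on simulated data with the SDs of the real genes. Those arrays were drawn independently, so they do not stand for data in which array 2 stands apart.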

Additional observations from a re-analysis of the deposited data

Results flagged for a closer look

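In groups of 4, a value was listed where its gap to the nearest other exceeded Dixon's 95% limit. Of 51 groups of ratios and pool levels tested 6 were listed, where chance lists about 5%. A ratio is the difference of the mutant and control levels, and several probes read the same gene. The groups are therefore not independent, and an excess over 5% cannot be judged from this count. Array 2 gave 5 of the 6. Its ratio was 0.30 for the brighter Gata4 probe, against -0.30 to -0.23 on the other arrays, and 0.66 for the second, against -0.46 to -0.43. It was 0.72 for the second Gata6 probe, against -0.10 to 0.02, and 0.48 for the brighter Hand2 probe, against -0.33 to -0.21. For Srf it was the low value, 0.17 against 0.39 to 0.41. The sixth was the control pool of array 3 for Hand1, whose level of 11.24 stood above the 11.07 to 11.09 of the other control pools.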

How the results depend on the processing

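Each factor was recomputed under 17 alternatives. Of the 170 values 149 kept their sign and their side of the threshold and 15 changed sign. Other filters, non-uniform spots kept, every probe by itself and an intensity trend in eBayes gave each factor the same ratio as the main fit. The mean over probes could not move a factor with 1 probe past the filter. Those unchanged signs are not separate support. Past the threshold came 8, of which 2 were among those that changed sign. Centring on the median, with all genes shifted by 0.23, gave 0.49 for Nkx2-5, 0.067 for Gata4, 0.57 for Gata6, 0.31 for Mef2a and 0.22 for Hand2, all with the sign turned, and Nkx2-5 and Gata6 past the threshold. It also brought Mef2c at 0.74, Srf at 0.84, Myocd at 0.64 and Hand1 at 0.44 past it. Relative to that shift Gata4 read -0.16 and Hand2 -0.01, while Nkx2-5, Gata6 and Mef2a read 0.26, 0.35 and 0.08. Array weights brought Mef2c at 0.43 and Srf at 0.39 past it and turned Gata5 to -0.15. Gata6 also turned to 0.0078 with the authors' ratios, 0.069 with the mean over probes (Mef2a 0.11) and 0.042 with the running median removed. With 1 array left out, Gata6 lay between -0.14 and 0.060 and Gata5 between -0.19 and 0.11, Myocd between 0.18 and 0.47, Gata4 between -0.27 and -0.07, Hand2 between -0.28 and -0.0064, Hand1 between 0.062 and 0.16, Mef2a between -0.14 and -0.025 and Nkx2-5 between -0.13 and -0.058. Gata5 read -0.18 with array 2 left out and the running median removed. The cause of these turns was not tested. The count of genes past the threshold, 1 (0 higher and 1 lower), was 7772 with median centring (7202 higher and 570 lower), 1574 with array weights (876 higher and 698 lower), 69 with array 2 left out and the running median removed (41 higher and 28 lower), 3 with the authors' ratios, and 0 in limma with no background subtraction, an offset of 16, the mean over probes and every probe by itself, where 2810, 2686, 2538 and 3948 had an unadjusted p under 0.05. With 1 array left out it ranged from 0 to 193, the highest without array 2 (130 higher and 63 lower), and the 0 without array 1, 3 or 4 stood beside 2182, 1497 and 1534 at an unadjusted p under 0.05. The main test was already paired, because each array's ratio sets 1 mutant pool against 1 control pool. With 4 arrays, 1 slide and 1 dye orientation, small differences of the factors cannot be resolved.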

Other observations

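Among the relatives and partners, Nkx2-6 and Irx4 were picked here after their values were seen. Nkx2-6, a homeobox gene related to Nkx2-5, read -0.35, 0.35, -0.41 and -0.46 on arrays 1 to 4, with -0.40 without array 2 (adjusted p = 0.0607 in limma). Irx4, a homeobox gene of ventricular muscle, read -0.45, 0.22, -0.30 and -0.44, with -0.40 without array 2 (adjusted p = 0.0690). Neither passed the threshold, and both had on each array the sign that the brightest probes of Gata4, Gata5, Gata6 and Hand2 had.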
